A study of Homo sapiens with 6 samples.

Results

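In all, 9 genes of transforming growth factor beta (TGF-beta) signalling and its transcriptional output are described here at the level of histone H4 acetylation (H4ac), measured by chromatin immunoprecipitation and sequencing. They are the ligand genes TGFB1 and TGFB2, the receptor genes TGFBR1 and TGFBR2, the signal transducer genes SMAD3 and SMAD7, and the target genes ID1, ID2 and ID3. Their regions were taken by gene name from the annotation of the deposited tables, as promoter regions (centre within 1000 bp of an annotated start) or distal regions (all others). Of the 9 genes, 8 had at least 1 H4ac region and 7 had a promoter region. They accounted for 77 of 63299 regions in the table of the hairpin shTIP60-B, 15 of them at promoters and 62 distal, and for 90 of 66546 regions in the table of shTIP60-C, 19 at promoters and 71 distal. Peaks shared by a hairpin and shControl are listed in 2 copies. The distal regions therefore covered 39 separate loci with shTIP60-B and 37 with shTIP60-C. TGFB2 had no region in either table, and ID2 had 1 distal region in each.

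The cells were H1975, an established human lung adenocarcinoma line, grown with 10% serum and carrying Tet-inducible short hairpins. The shTIP60-B and shTIP60-C cells expressed hairpins against TIP60, the lysine acetyltransferase encoded by KAT5, and the shControl cells a control hairpin. All groups received 0.5 ug/ml doxycycline for 2 days, and each has 1 H4ac library, so nothing reported below could be checked against replicates. Each deposited p compares 2 libraries, not 2 conditions, and both hairpins are set against the same shControl library. The labels name no added TGF-beta or bone morphogenetic protein.

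TGF-beta ligands bind a pair of receptor kinases, TGFBR2 and TGFBR1, which phosphorylate SMAD2 and SMAD3. These join SMAD4, enter the nucleus and bind DNA at target genes; the related bone morphogenetic proteins (BMPs) act through SMAD1, SMAD5 and SMAD9. SMAD7 is induced by the pathway and blocks the receptors, and the ID genes, classical direct BMP targets that TGF-beta also regulates, encode helix-loop-helix proteins without a DNA-binding region that hold E proteins away from DNA. In lung epithelium the pathway is known for growth arrest and for the epithelial-mesenchymal transition.

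The reads in listed regions were 5508475 for shTIP60-B and 6706229 for shControl in one table, and 13429202 for shTIP60-C and 7043106 for shControl in the other. M, the authors' log2 ratio of hairpin over shControl after their rescaling, is relative to other regions, so a change common to the whole genome was not measured. Intervals in parentheses after M are 95% exact counting intervals, which cover counting error only. Whole chromosomes differed in the shTIP60-B library: the median M was -0.69 on chromosome 20, which carries ID1, -0.34 on chromosome 1, which carries ID3, and 0.24 on chromosome 3, which carries TGFBR2. For shTIP60-C, the chromosomes of these genes had medians between -0.07 and 0.09. M is therefore also given centred, that is, minus the median M of its chromosome in the same table. Of 9 lung adenocarcinoma and epithelial marker genes, 7 had a promoter region in each table (SFTPB and NAPSA had other regions only), and 0 of 4 blood cell marker genes had one (2 had other regions). Of 5 mesenchymal marker genes, 3 had a promoter region in the shTIP60-B table and 2 in the shTIP60-C table, with VIM in the shTIP60-B table alone. Hairpins act on the transcript, which was not measured here, and in a bulk library fewer cells with the mark and less of it per cell cannot be told apart.

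The promoters below are shown because, with shTIP60-B, ID1 and ID3 had the lowest promoter ratios and the upstream SMAD3 promoter the highest. ID2 is shown because it had no promoter region at all. Each is the 250 bases before the first RefSeq start (SMAD3 has 5), 5′ to 3′ on the gene's strand, on GRCh38.p14; the H4ac regions are on hg19 and no coordinate was converted. ID1 is chr20:31605039-31605288 (plus strand), ID2 chr2:8681806-8682055 (plus), ID3 chr1:23559502-23559751 (minus) and SMAD3 chr15:67065352-67065601 (plus). Capitals mark 3 motifs on either strand: GTCT or AGAC, the core that SMAD3 and SMAD4 bind; GGCGCC; and GGAGCC or GGCTCC, GC-rich elements bound by the BMP SMADs.
ID1: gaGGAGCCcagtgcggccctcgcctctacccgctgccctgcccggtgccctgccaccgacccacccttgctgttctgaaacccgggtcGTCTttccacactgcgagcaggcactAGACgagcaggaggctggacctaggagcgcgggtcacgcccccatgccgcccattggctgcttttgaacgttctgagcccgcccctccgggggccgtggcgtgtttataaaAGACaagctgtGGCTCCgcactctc
ID2: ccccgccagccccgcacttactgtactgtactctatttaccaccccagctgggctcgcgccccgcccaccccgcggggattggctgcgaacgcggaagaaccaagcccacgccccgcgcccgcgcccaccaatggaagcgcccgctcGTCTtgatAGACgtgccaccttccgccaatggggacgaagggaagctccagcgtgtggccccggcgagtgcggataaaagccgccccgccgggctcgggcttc
ID3: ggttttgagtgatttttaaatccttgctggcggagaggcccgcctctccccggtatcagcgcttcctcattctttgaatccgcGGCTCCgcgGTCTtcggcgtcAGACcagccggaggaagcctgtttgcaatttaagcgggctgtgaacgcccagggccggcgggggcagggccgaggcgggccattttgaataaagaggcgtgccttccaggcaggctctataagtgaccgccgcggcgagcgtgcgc
SMAD3: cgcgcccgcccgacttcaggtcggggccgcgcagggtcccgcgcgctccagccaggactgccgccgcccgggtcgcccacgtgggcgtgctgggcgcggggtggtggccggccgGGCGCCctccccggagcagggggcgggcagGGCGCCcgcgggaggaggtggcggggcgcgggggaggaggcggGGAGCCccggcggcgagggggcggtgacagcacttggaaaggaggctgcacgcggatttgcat
The ID1 window held 3 GTCT cores and 2 GGAGCC elements, the ID3 window 2 cores and 1 GGAGCC element, and the ID2 window 2 cores alone. The SMAD3 window had no core, 2 GGCGCC elements and 1 GGAGCC element in a sequence of 80.8% G and C. Of all 35116 promoter windows of this length, 77.5% held a GTCT core, 16.4% a GGCGCC and 30.6% a GGAGCC element on either strand, so these matches are common and are given only as a description.

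No promoter of the 7 genes passed the rule for a change (2-fold or more, and a deposited p no larger than 1e-05) with either hairpin. With shTIP60-B, 0 of 7 fell, where 3.47% of the 11541 genes with a promoter region fell, and 0 of 7 rose, where 1.28% of all genes rose. With shTIP60-C, 0 of 7 fell (0.0433% of 11549 genes) and 0 of 7 rose (0.139%). The median M of the 7 promoters was -0.54 with shTIP60-B (all genes -0.12) and -0.15 with shTIP60-C (all genes -0.0016). Centred, the median was -0.44 with shTIP60-B (all genes -0.03) and -0.14 with shTIP60-C (all genes 0.02). Below 0 were 6 of 7 with shTIP60-B and 5 of 7 with shTIP60-C, and 58.7% and 50.2% of all genes were below 0 in the same tables. The regions standing for the 7 promoters had a median of 57 shControl reads in the shTIP60-B table (all genes 101) and 85 in the shTIP60-C table (all genes 102).

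**Figure D1:**
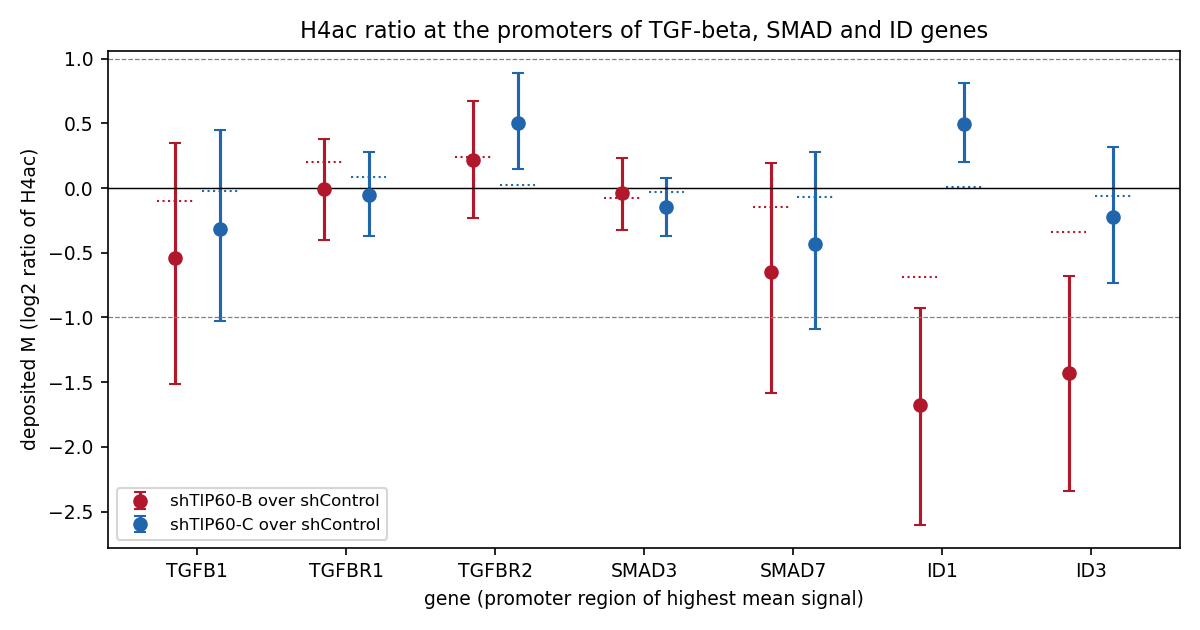
Deposited M (log2 ratio of H4ac, y axis) at the promoter region of highest mean signal of each gene (x axis), for shTIP60-B (red) and shTIP60-C (blue) over shControl; bars are 95% counting intervals, dotted ticks the median M of the gene's chromosome, dashed lines a 2-fold difference. ID1 and ID3 lie at -1.67 and -1.43 with shTIP60-B, and the other shTIP60-B points lie between -0.65 and 0.22.

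The ligand gene TGFB1 had a weak promoter region (chromosome 19, 41859224 to 41859907), centred 223 bp from its start. The annotation labels the region by the transcript end of the neighbouring gene B9D2, so its acetylation cannot be assigned to one of the genes. It held 18 reads in shTIP60-B, 43 in shTIP60-C and 27 in shControl. Levels, given here as reads per kilobase per 1000000 reads in regions of the shControl peak list, were 9.26 in shTIP60-B, 9.32 in shTIP60-C and 10.9 in shControl. The 3 levels were close together, and M was -0.54 (-1.51 to 0.35) with shTIP60-B and -0.32 (-1.03 to 0.45) for shTIP60-C. An overlapping copy listed from shTIP60-C peaks, 2 bp from the start, is labelled as the TGFB1 promoter. There 44 shTIP60-C reads against 25 in shControl gave M = -0.18 (-0.90 to 0.61). No TGFB1 distal region was listed, and TGFB2, the second ligand gene, was without a region of either kind.

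The type I receptor gene TGFBR1 kept an even level at its promoter (chromosome 9, 101866364 to 101868437): 17.6 in shTIP60-B, 16.3 in shTIP60-C and 16.4 in shControl. Its M was -0.01 (-0.40 to 0.38) with shTIP60-B and -0.05 (-0.37 to 0.28) for shTIP60-C, from 104 reads in shTIP60-B, 228 in shTIP60-C and 124 in shControl. The distal region of highest mean signal named for TGFBR1 in the shTIP60-B table (-49437 bp, 101816320 to 101819548) lies in the collagen gene COL15A1, and nearness to a start does not show that it acts on TGFBR1. It had M = 0.21 (-0.11 to 0.52) with shTIP60-B and -0.09 (-0.36 to 0.18) for shTIP60-C. The next region of that stretch (101819637 to 101821078, -47014 bp from the start) set the hairpins apart. It had a level of 16.8 in shTIP60-B, 29.4 in shTIP60-C and 28.0 in shControl, and M was -0.89 (-1.33 to -0.48) with shTIP60-B, short of the 2-fold rule, and 0.04 (-0.25 to 0.34) for shTIP60-C. The difference between the hairpins there was -0.92 (-1.34 to -0.56), and -1.04 (-1.46 to -0.67) after centring.

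The type II receptor gene TGFBR2 had promoter levels of 25.04 in shTIP60-B, 27.9 in shTIP60-C and 19.6 in shControl (chromosome 3, 30647955 to 30649148). Both hairpins lay above shControl, but neither passed the rule. From 85 reads in shTIP60-B, 225 in shTIP60-C and 85 in shControl, M was 0.22 (-0.23 to 0.67) with shTIP60-B and 0.47 (0.11 to 0.86) for shTIP60-C. Centred on chromosome 3, M was -0.02 with shTIP60-B, at the level of its chromosome, and 0.44 for shTIP60-C. At the shTIP60-C promoter region of highest signal M was 0.50, and 90.9% of the 651 chromosome 3 genes had a lower value.

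The gene body of TGFBR2 held the only region of the 9 genes that passed the rule. It lies in intron 2 (chromosome 3, 30667497 to 30668769), 20139 bp downstream of the start, and held 47 reads in shTIP60-B, 50 in shTIP60-C and 75 in shControl. Its level was 13.0 in shTIP60-B, 5.82 in shTIP60-C and 16.2 in shControl. H4ac fell there with shTIP60-C, M = -1.54 (-2.10 to -1.02), deposited p = 2.05e-06 in the authors' deposited table. The region was a shControl peak without a shTIP60-C peak, a selection that favours a low shTIP60-C ratio. It passed under all 9 alternatives run for it, but not all of them could have failed. Looser fold or p thresholds, shControl copies only and the wider promoter could not change its result. Chromosome centring, window centring and scaling by totals moved its M little, to -1.57, -1.52 and -1.51, so they tested it little. An exact binomial p and the low-signal filter could have changed the result, and it still passed. With shTIP60-B its M was -0.52 (-1.09 to 0.01), in the same direction but short of the rule, with p = 0.0748 in the authors' deposited table. Among distal regions with shTIP60-C this was 1 fall of 71, where 0.0603% of all 43139 distal regions fell, and 0 of 71 rose, where 0.283% did. With shTIP60-B, 0 of 62 distal regions fell (3.13% of 40667 did) and 0 of 62 rose (2.61% did). All of these counts include both copies of shared peaks.

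TGFBR2 regions went apart in the shTIP60-C library. The promoter lay above 0, while the 4 other shControl-list regions lay below: M was -0.29 at -263279 bp, -0.59 at -67140 bp, -1.54 at 20139 bp and -0.42 at 52771 bp. The last of these, in intron 4, had the highest mean signal of the distal regions, and its M was 0.14 (-0.23 to 0.50) with shTIP60-B. Summed over the 5 regions, 686 shTIP60-C reads against 458 shControl reads gave a log2 ratio of -0.32 (-0.50 to -0.15) relative to chromosome 3. The same sum for shTIP60-B, 406 against 458 reads, gave -0.08 (-0.28 to 0.12). The shTIP60-C sum includes the region that passed the rule. The regions at -263279 and 20139 bp had no shTIP60-C peak, which favours a low shTIP60-C sum. Hairpin-list copies of these regions had ratios on the same side of 0, for example -0.62 at -67014 bp and -0.31 at 52300 bp with shTIP60-C and -0.44 at 20030 bp with shTIP60-B. Some regions listed only from hairpin peaks lay above 0. The region at -104488 bp had 43 shTIP60-B reads against 16 in shControl, M = 1.503 (0.70 to 2.48), and its shTIP60-C counterpart 66 against 16, M = 1.02 (0.28 to 1.97). A region at -61984 bp had M = 1.89 with shTIP60-B from 24 against 6 reads, and one at -260590 bp had M = 1.72 with shTIP60-C from 63 against 9. None passed the rule, and regions listed from a hairpin's own peaks are selected for signal in that library.

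**Figure D2:**
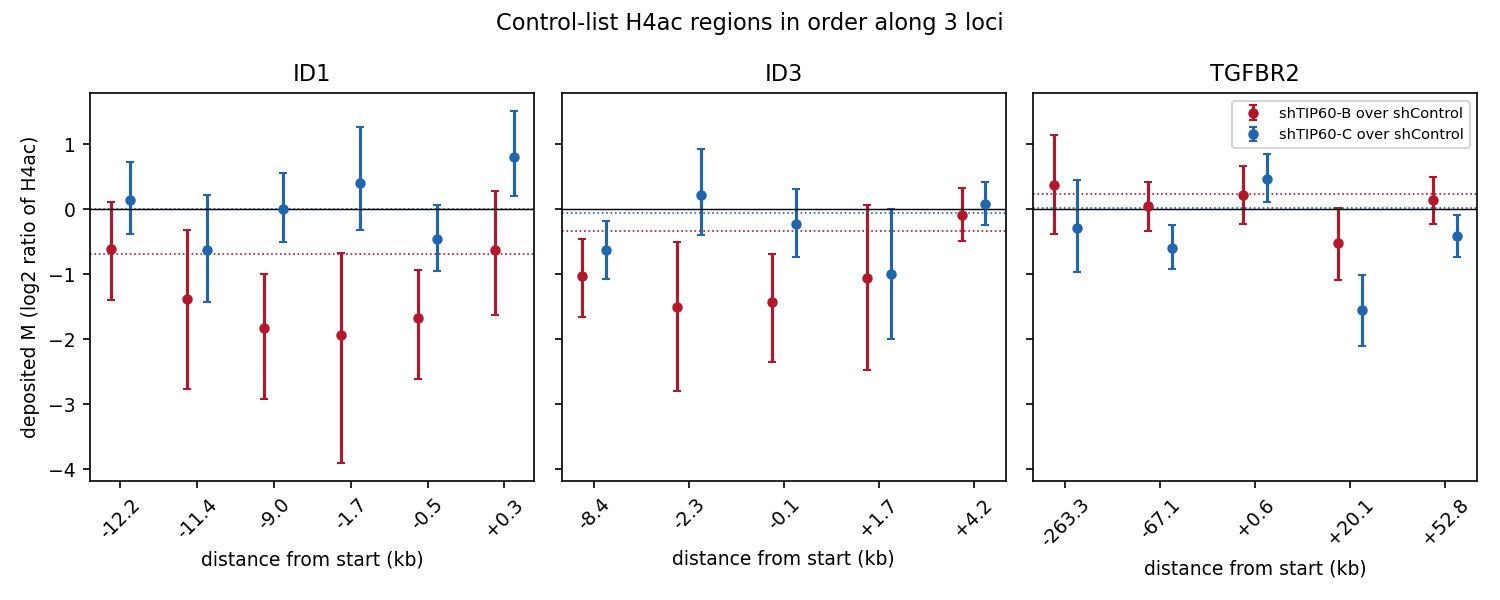
Deposited M (log2 ratio of H4ac, y axis) with 95% counting intervals at the shControl-list regions of ID1, ID3 and TGFBR2, in order along each locus and labelled by distance from the nearest annotated start in kb (x axis, not to scale), for shTIP60-B (red) and shTIP60-C (blue) over shControl; dotted lines are the chromosome medians. All 6 ID1 regions lie below 0 with shTIP60-B, and the TGFBR2 region at 20139 bp is the lowest shTIP60-C point at -1.54.

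SMAD3, the receptor-activated transducer of TGF-beta, had 13 shControl-list regions, more than any other of the 9 genes, with promoter regions at 2 annotated starts (chromosome 15). At the upstream start (67357044 to 67358176) the level was 37.9 in shTIP60-B, 20.5 in shTIP60-C and 18.4 in shControl, from 122 reads in shTIP60-B, 157 in shTIP60-C and 76 in shControl. The shTIP60-B library stood alone here, with M = 0.94 (0.52 to 1.38) and p = 3.83e-06 in the authors' deposited table, just short of a 2-fold difference, while shTIP60-C had M = 0.10 (-0.29 to 0.53). Centred on chromosome 15, M was 1.02 with shTIP60-B, above a 2-fold difference, and 0.13 for shTIP60-C. The copy listed from shTIP60-B peaks had M = 0.83 (0.43 to 1.25), or 0.91 centred. The difference between the hairpins at this region was 0.84 (0.48 to 1.19). Just inside the first intron, at 686 bp, both hairpins were above shControl in level, 17.2 in shTIP60-B and 20.8 in shTIP60-C against 11.1 in shControl, and M was 0.34 (-0.48 to 1.20) with shTIP60-B and 0.80 (0.17 to 1.56) for shTIP60-C.

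The internal SMAD3 start, whose region had the highest mean signal and stood for the gene, was flat. Its shControl-list region (67417098 to 67419858) had levels of 21.0 in shTIP60-B, 20.6 in shTIP60-C and 21.0 in shControl, and M was -0.05 (-0.35 to 0.25) with shTIP60-B and -0.05 (-0.30 to 0.20) for shTIP60-C. The shControl-list region of highest level among the 9 genes lies in the first intron of SMAD3 (67396787 to 67400842) and was flat as well, at levels of 44.2 in shTIP60-B, 46.5 in shTIP60-C and 47.8 in shControl. It rested on 510 reads in shTIP60-B, 1273 in shTIP60-C and 706 in shControl. M was -0.02 (-0.18 to 0.15) with shTIP60-B and -0.03 (-0.16 to 0.11) for shTIP60-C, so the 3 libraries differed little at the deepest region of the 9 genes. Over all 13 shControl-list regions of SMAD3 the summed ratio relative to chromosome 15 was -0.05 (-0.16 to 0.07) with shTIP60-B and 0.01 (-0.08 to 0.10) for shTIP60-C.

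**Figure D3:**
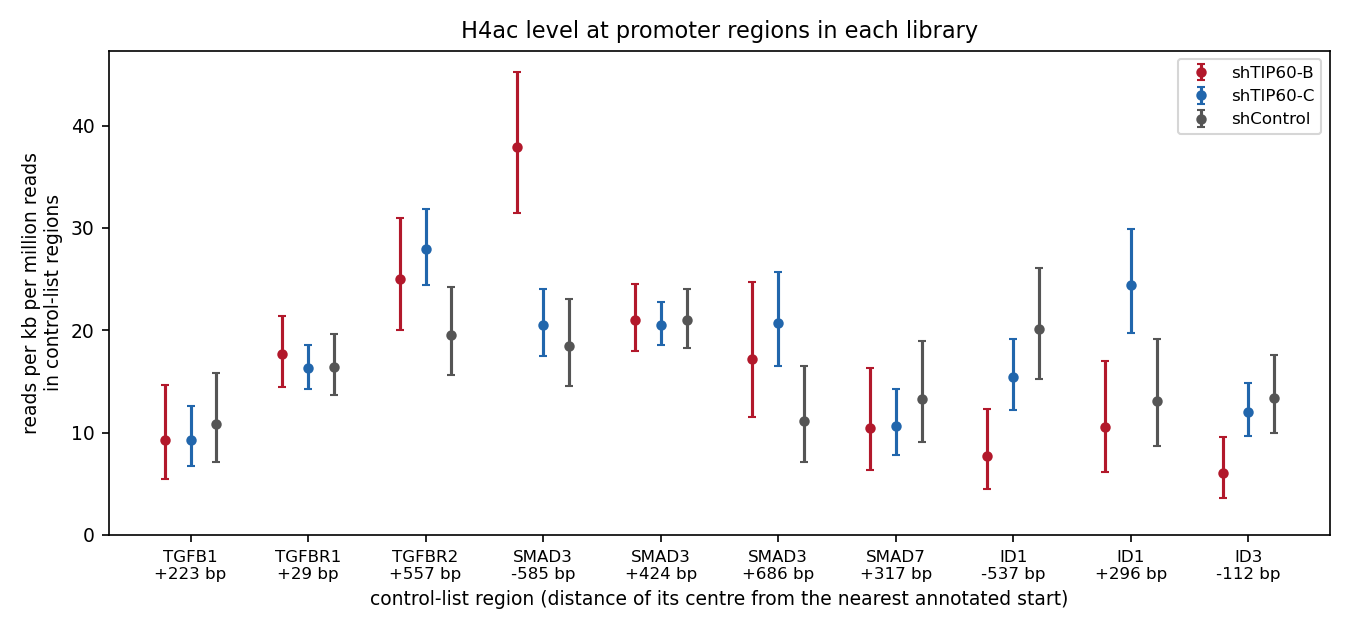
H4ac level (y axis, reads per kilobase per 1000000 reads in shControl-list regions) at each promoter region of the shControl list (x axis, gene and distance from the nearest start), in shTIP60-B (red), shTIP60-C (blue) and shControl (grey), 1 library each; bars are 95% exact Poisson intervals. The shTIP60-B library is highest at the upstream SMAD3 start (37.9) and lowest at the ID1 region at -537 bp (7.68) and at ID3 (6.05).

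SMAD7, the inhibitory SMAD, had a weak promoter region at an annotated alternative start (chromosome 18, 46468541 to 46469179) with levels of 10.5 in shTIP60-B, 10.7 in shTIP60-C and 13.3 in shControl. Reads were 19 in shTIP60-B, 46 in shTIP60-C and 31 in shControl, and M was -0.65 (-1.58 to 0.19) with shTIP60-B and -0.41 (-1.09 to 0.31) for shTIP60-C. Its strongest near-start region lay just outside the promoter window, at -1980 bp (46478535 to 46479587), with levels of 30.4 in shTIP60-B, 28.9 in shTIP60-C and 35.7 in shControl. There both hairpins gave nearly the same ratio, M = -0.36 (-0.76 to 0.03) with shTIP60-B and -0.35 (-0.67 to -0.02) for shTIP60-C. The upstream region at -47206 bp (46523000 to 46525575), of highest mean signal among its distal regions, was level, and M was -0.09 (-0.41 to 0.21) with shTIP60-B and 0.06 (-0.18 to 0.31) for shTIP60-C. Summed over 11 regions and set against chromosome 18, SMAD7 gave -0.04 (-0.20 to 0.11) with shTIP60-B and -0.06 (-0.18 to 0.07) for shTIP60-C. After centring, 8 of 11 lay below 0 with shTIP60-B and 10 of 11 with shTIP60-C. Of all 36034 shControl-list regions, 22046 and 21608 did. The region at 107990 bp, in the gene CTIF, had M = -0.87 (-1.61 to -0.22) with shTIP60-B and -1.07 (-1.65 to -0.50) for shTIP60-C. It had no peak with either hairpin, which favours low ratios.

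ID1 had the lowest promoter ratio of the 9 genes with shTIP60-B. The region at -537 bp (chromosome 20, 30192160 to 30192938) held 17 reads in shTIP60-B, 81 in shTIP60-C and 57 in shControl. It was a shControl peak without a shTIP60-B peak, a selection that favours a low shTIP60-B ratio. Its level was 7.68 in shTIP60-B, 15.4 in shTIP60-C and 20.1 in shControl, with shTIP60-B the lowest. Its M was -1.67 (-2.61 to -0.93) with shTIP60-B, with a deposited p of 1.18e-05 that narrowly missed the threshold. Part of this value is shared by its chromosome: centred it was -0.99 (-1.92 to -0.24), and 20 of 323 chromosome 20 genes (6.19%) had a lower ratio. With shTIP60-C the same region had M = -0.45 (-0.95 to 0.07).

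The second ID1 promoter region, at 296 bp (30193100 to 30193664), behaved otherwise. Its levels were 10.6 in shTIP60-B, 24.4 in shTIP60-C and 13.1 in shControl, and M was -0.62 (-1.62 to 0.27) with shTIP60-B and 0.80 (0.20 to 1.51) for shTIP60-C. In the shTIP60-C table a wide region of that library's own peak list (30190851 to 30194239) spans both, and the region at -1658 bp, and stood for the gene, with 331 reads against 124 in shControl and M = 0.49 (0.20 to 0.81). The sign of the ID1 promoter value with shTIP60-C therefore turned with the region used, 0.49 over the wide region and -0.45 at the region that stood for the gene with shTIP60-B.

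Ratios with shTIP60-B were low through the ID1 locus, as on chromosome 20 at large, where the upper quartile of M was -0.30. All 6 shControl-list regions between -12218 and 296 bp had an M below 0 with shTIP60-B, against 2 of 6 with shTIP60-C. After centring 4 of 6 were below 0 with shTIP60-B and 2 of 6 with shTIP60-C. Of all 36034 shControl-list regions, 22046 were below 0 after centring with shTIP60-B and 21608 with shTIP60-C. The farthest ID1 region, of highest mean signal among the distal regions in the shTIP60-B table, had M = -0.60 (-1.39 to 0.11) with shTIP60-B and 0.15 (-0.38 to 0.73) for shTIP60-C. The region at -9018 bp (30183574 to 30184562), with levels of 4.62 in shTIP60-B, 14.1 in shTIP60-C and 13.3 in shControl, had M = -1.83 (-2.91 to -0.996) with shTIP60-B and 0.01 (-0.50 to 0.55) for shTIP60-C. All of the 6 except the farthest were shControl peaks without a shTIP60-B peak, a selection that favours low shTIP60-B ratios. Summed over the 6 regions, 87 shTIP60-B reads against 218 shControl reads gave a log2 ratio of -1.04 (-1.42 to -0.68), and -0.38 (-0.75 to -0.01) relative to all chromosome 20 regions of the shControl list. The same sums for shTIP60-C, 443 against 218, gave 0.09 (-0.15 to 0.33), and 0.12 (-0.12 to 0.36) relative to the chromosome. At 5 of the 6 regions the interval of the difference shTIP60-B minus shTIP60-C lay below 0 (26.6% of all 36034 shControl-list regions), and at 3 of 6 after centring on the chromosome (22.1% of all).

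With shTIP60-B, ID3 was next lowest at its promoter (chromosome 1, 23885875 to 23886920), with 18 reads in shTIP60-B, 85 in shTIP60-C and 51 in shControl. As at ID1, this was a shControl peak without a shTIP60-B peak, which favours a low shTIP60-B ratio. Levels were 6.05 in shTIP60-B, 12.0 in shTIP60-C and 13.4 in shControl, and the shTIP60-B library stood apart from the other two. Its M was -1.43 (-2.35 to -0.68) with shTIP60-B, p = 0.000252 in the authors' deposited table, and -0.23 (-0.73 to 0.31) with shTIP60-C. Centred on chromosome 1, M was -1.09 (-2.01 to -0.34) with shTIP60-B and -0.17 (-0.68 to 0.37) for shTIP60-C, and 7.04% of 1123 chromosome 1 genes lay below the shTIP60-B value. The difference between the hairpins at this promoter was -0.93 (-1.81 to -0.24) after centring.

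Away from the ID3 promoter the picture was mixed. The CpG island region at -8426 bp (23894231 to 23895191) had the highest level of the locus in shControl, with levels of 13.2 in shTIP60-B, 15.4 in shTIP60-C and 22.9 in shControl. Both hairpins were below shControl there, and M was -1.02 (-1.65 to -0.46) with shTIP60-B and -0.63 (-1.07 to -0.18) for shTIP60-C. The region at 4236 bp, beyond the gene's end, had the highest mean signal of the distal regions and was level, and M was -0.08 (-0.49 to 0.32) with shTIP60-B and 0.08 (-0.24 to 0.42) for shTIP60-C. Summed over 5 regions relative to chromosome 1, ID3 gave -0.27 (-0.55 to 0.01) with shTIP60-B and -0.11 (-0.32 to 0.10) for shTIP60-C. Its regions at 1746, -112 and -2335 bp had no shTIP60-B peak, which favours a low shTIP60-B sum.

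ID2 lacked a promoter region in both tables and had a single region, labelled by its transcript end and listed from each hairpin's own peaks. It held 43 shTIP60-B reads against 29 in shControl, M = 0.68 (-0.01 to 1.43), and 75 shTIP60-C reads against 29, M = 0.38 (-0.22 to 1.09). Both values were above 0, with intervals that include 0.

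**Figure D4:**
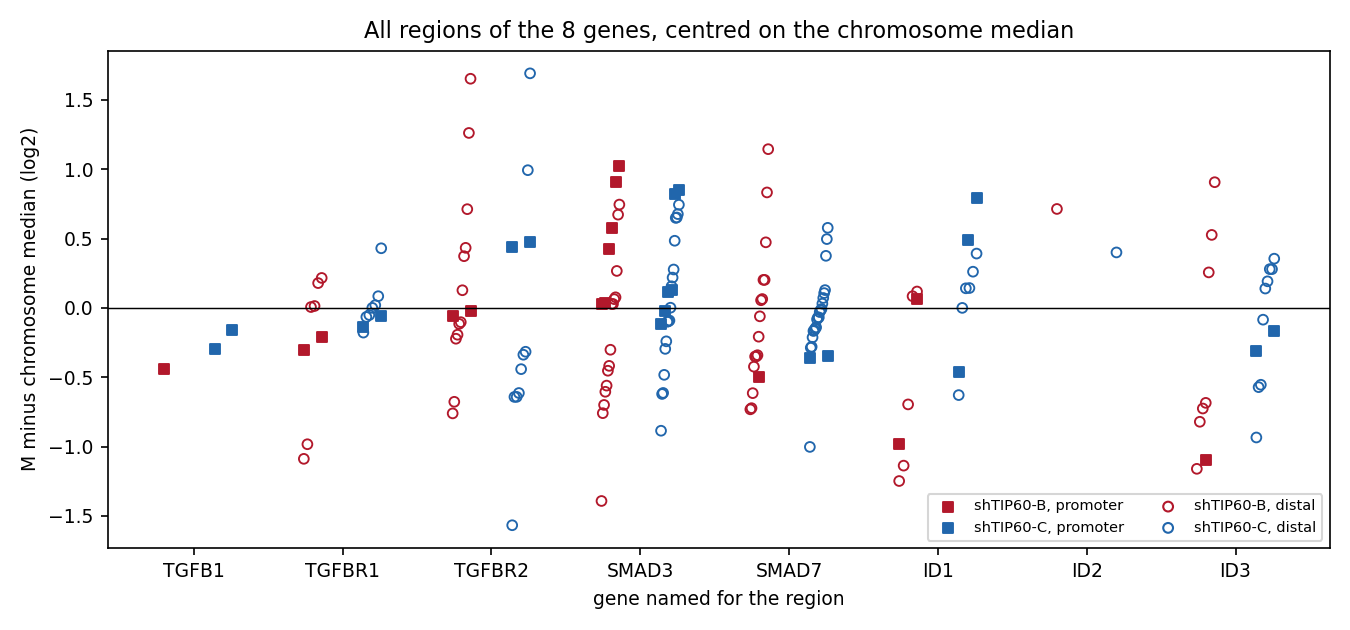
M minus the chromosome median (y axis, log2) for all regions of the 8 genes with one (x axis), for shTIP60-B (red) and shTIP60-C (blue) over shControl; filled squares are promoter regions and open circles distal regions, and shared regions appear as a hairpin-list and a shControl-list copy. Most points lie within 1 of 0, and the TGFBR2 region that fell is the lowest shTIP60-C point at -1.57.

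The 2 hairpins were compared at the 45 shControl-list regions of these genes as the difference of their M values, which depends on shControl through the rescaling, the centring and the choice of regions. The counting interval of the centred difference lay below 0 at 11 of 45 (24.4%) and above 0 at 3 (6.67%). Over all 36034 shControl-list regions these shares were 22.1% and 15.5%, so the share of lower regions was near that of the whole table. Control-list regions are selected for signal in shControl and lay low in general, with a median M of -0.27 with shTIP60-B and -0.12 with shTIP60-C.

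Other genes of the pathway, 68 in 6 role lists, were set beside the members. Promoter regions were present for 48 of them in the shTIP60-B table and 46 in the shTIP60-C table. With shTIP60-B, 2 of 48 fell and 0 rose, near the 3.47% and 1.28% of all genes, and with shTIP60-C 0 of 46 fell and 0 rose (0.0433% and 0.139% of all genes). The median M was -0.25 with shTIP60-B (all genes -0.12) and -0.05 with shTIP60-C (all genes -0.0016). Neither of the genes that fell passed under every setting: SMURF1 no longer passed after centring on the chromosome (centred M = -0.98) or the 10 Mb window, and SMAD5 no longer passed with scaling by totals or an exact binomial p. SMAD5, a BMP-activated SMAD (chromosome 5), had 49 shTIP60-B reads against 118, M = -1.10 (-1.63 to -0.63), and 290 shTIP60-C reads against 127 at its region there, M = 0.27 (-0.03 to 0.58). SMURF1, a ubiquitin ligase that marks BMP SMADs and receptors for degradation (chromosome 7), had 80 shTIP60-B reads against 216, M = -1.21 (-1.61 to -0.85), and 287 shTIP60-C reads against 216, M = -0.51 (-0.77 to -0.25).

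The ends of each role list give its spread. Ligands and their latency proteins ran with shTIP60-B between LTBP1 at -0.85 and LTBP2 at 0.70, and with shTIP60-C from TGFB3 at -0.23 to LTBP2 at 0.82. LTBP2, a latent TGF-beta binding protein family member, was thus the highest of its list with both hairpins, from 61 shTIP60-B reads against 42 and 148 shTIP60-C reads against 43. Receptors ran from ACVR1 at -0.73 to BMPR1A at 0.38 with shTIP60-B and from BMPR1B at -0.27 to ACVR2A at 0.33 with shTIP60-C. Over the promoters of 5 other SMAD genes the median was -0.60 with shTIP60-B and 0.15 with shTIP60-C, with SMAD1 highest at 0.05 with shTIP60-B and SMAD9 lowest at -0.36 with shTIP60-C.

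Among modulators the decoy receptor gene BAMBI was lowest with both hairpins, M = -1.87 with shTIP60-B, on 5 reads, and -1.15 with shTIP60-C, on 17, against 19 reads in shControl. The highest modulators were the ubiquitin ligase gene NEDD4L at 0.60 with shTIP60-B and the corepressor gene TGIF2 at 0.28 with shTIP60-C. Target genes ran from the fibronectin gene FN1 at -1.48 to the transcription factor gene ZEB1 at 0.78 with shTIP60-B, and from the thrombospondin gene THBS1 at -0.89 to SNAI1 at 0.58 with shTIP60-C. Of the E protein genes whose products ID proteins bind, TCF3 and TCF12 had promoter regions, at -0.82 and -0.20 with shTIP60-B and at 0.30 and 0.09 with shTIP60-C. Apart from SMAD5 and SMURF1 none of the genes named in these lists passed the rule.

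**Figure D5:**
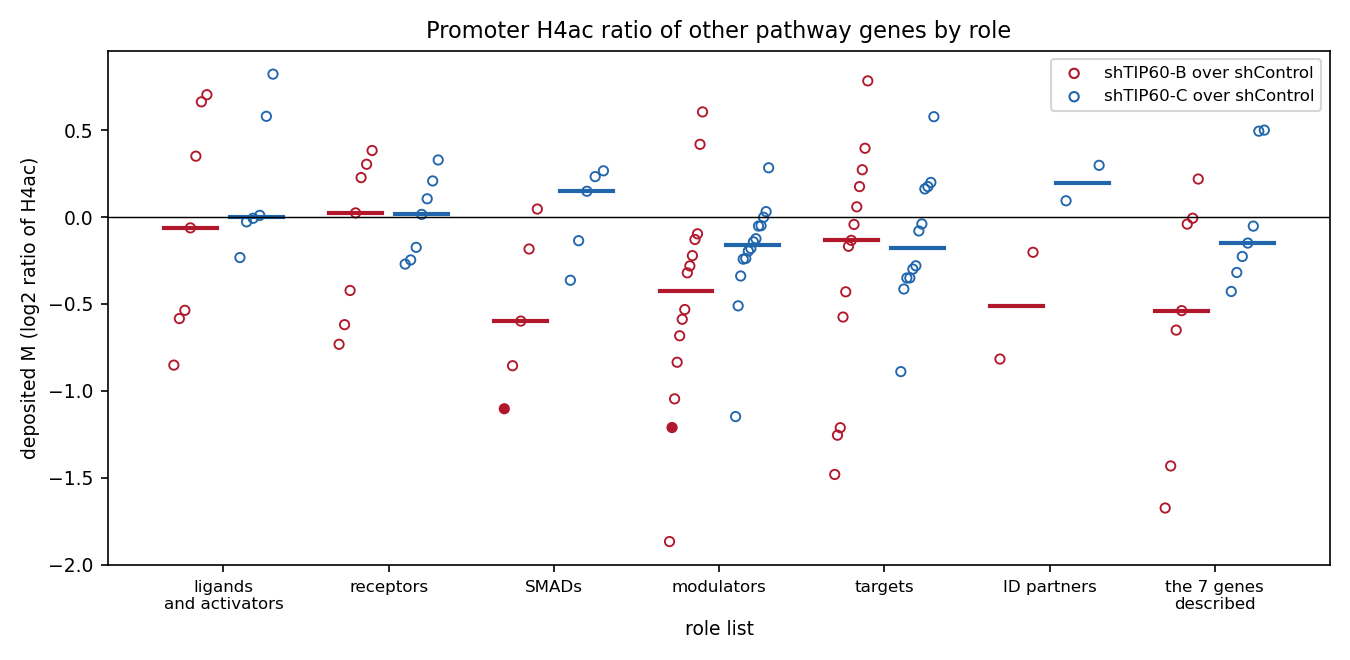
Deposited M at the promoters of other pathway genes (y axis, log2 ratio of H4ac) by role list (x axis), with the 7 genes described above at the right, for shTIP60-B (red) and shTIP60-C (blue) over shControl; filled points passed the rule, open points did not, and lines are medians. The filled points are SMAD5 at -1.10 and SMURF1 at -1.21, both with shTIP60-B.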

How the data were processed

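H4ac libraries of H1975 cells with shTIP60-B, shTIP60-C or shControl, 1 per group by their titles, were compared; the 3 input libraries were not used here. The submitters' processing notes list hg19, Bowtie2 and MACS 1.4.2. MAnorm is named by the tables and HOMER by their headers, without versions. Each region carries raw read counts for its pair of libraries, as deposited, M and A as log2 values rescaled by the authors, and a deposited score, the −log10 of the p-value, not adjusted over regions.

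Where a gene had several promoter regions, that of highest mean signal A stood for it. The other genes named are those that passed the rule and, per role list, the lowest and highest M with each hairpin; distal regions named are the strongest per gene, those that passed, and others chosen after their values were seen. Intervals of M are Clopper-Pearson (exact) from both read counts, moved by the offset between M and the raw ratio; levels carry exact Poisson intervals. Sums over a locus and differences between hairpins were added after values had been seen. The levels used 2842710 shTIP60-B, 6746689 shTIP60-C and 3638815 shControl reads in the shControl list. A region held a median of 49 shTIP60-B or 111 shTIP60-C reads, with 57 shControl reads in each table, so shTIP60-C ratios are the more precise. The genes, lists and rules were chosen with earlier results of these data known. Alternatives were centring on chromosome or 10 Mb window, scaling by totals, an exact binomial p, other thresholds, a low-signal filter, shControl copies only, a 3 kb promoter and a mean over promoter regions. Python 3.11.15, numpy 2.4.6, pandas 2.3.3, scipy 1.17.1 and matplotlib 3.10.9 were used. Promoter sequences are from RefSeq (GRCh38.p14).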

Additional observations from a re-analysis of the deposited data

Results flagged for a closer look

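The ID1 promoter value had opposite signs with the hairpins, each with a counting interval on one side of 0: M was -1.67 with shTIP60-B and 0.49 with shTIP60-C. The 2 values come from regions of different width and selection. The shTIP60-B value is from a shControl peak without a shTIP60-B peak, and the shTIP60-C value from that library's own peak list. At the region used for shTIP60-B the shTIP60-C value was -0.45. The difference between the hairpins at that region was -1.22 (-2.13 to -0.52), and -0.53 (-1.44 to 0.18) after centring on chromosome 20. With 1 library per hairpin it was not tested over replicates.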

How the results depend on the processing

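No paired analysis was possible because each group has 1 H4ac library and the labels give no replicate numbers, so no replicate could be left out either. The counts of members and pathway genes that passed moved in the shTIP60-B table with these settings. Of pathway promoters, 2 passed as reported. Under alternatives 1 passed with chromosome centring or the 10 Mb window (SMAD5) and 1 with scaling by totals or the exact binomial p (SMURF1). With a fold of 1.5, 5 passed (SMAD2, SMAD5, SMURF1 and TCF3 fell, ZEB1 rose). With a deposited p of at most 0.001 (FN1 added) or a 3 kb promoter (PMEPA1 added), 3 passed, and all fell. With a deposited p of at most 0.001, 2 promoters of the 9 genes fell with shTIP60-B (ID1 and ID3) where 0 had. Distal regions that passed were then 5 with shTIP60-B (3 fell, 2 rose), where 0 had, and 2 with shTIP60-C (1 fell, 1 rose), where 1 had. These distal counts include both copies of shared peaks, and the shTIP60-B falls include both copies of the ID3 peak at -8426 bp. Shares of all genes or regions were not counted under these settings. Promoters were counted by the region standing for the gene, which left out the upstream SMAD3 region. Its M of 0.94, or 1.02 centred, with a deposited p of 3.83e-06, would pass with a fold of 1.5 or chromosome centring. Of single promoter values, SMAD3 moved to 0.42 with shTIP60-B and 0.27 with shTIP60-C as a mean over its promoter regions, and ID1 with shTIP60-C moved to -0.45 without hairpin-list copies; these follow from the regions used, and the cause of the other moves was not tested. The other 67 and 66 values of promoter ratios under alternatives, for shTIP60-B and shTIP60-C, moved by less than their counting intervals. Depth limits the weak promoters: TGFB1, SMAD7, ID1 and ID3 rest on 17 to 19 shTIP60-B reads each.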
